A study of Homo sapiens with 33 samples.

Results

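The genes described here are 10 feedback inhibitors of ERK and cytokine signalling, picked by name: the dual-specificity phosphatases DUSP1, DUSP4, DUSP5 and DUSP6, the Sprouty genes SPRY2 and SPRY4, the Sprouty-related genes SPRED1 and SPRED2, the suppressor of cytokine signalling SOCS3, and PHLDA1. They are 10 of the 59428 entries in the count table. All 10 passed the filter on low counts, among 18911 genes tested in the inhibitor libraries and 16783 tested in the knockout libraries.

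ERK is the last kinase of the RAS, RAF and MEK cascade, which carries growth factor signals to the nucleus. Active ERK switches on genes whose products turn the cascade off again: DUSP phosphatases remove phosphates from ERK and related kinases, while Sprouty and SPRED proteins act upstream, at the level of RAS and RAF. SOCS3 does the same for cytokine receptors that signal through JAK kinases and STAT3, and PHLDA1 is a growth factor-induced gene with a pleckstrin homology-like domain. Many of these mRNAs are short-lived.

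The study measured poly(A) RNA by 3' tag sequencing, in which reads come from the end of each transcript next to its poly(A) tail. The 33 libraries are of 2 triple-negative breast cancer lines, written MDA-MD-231 and MDA-MD-468 in the labels. Its title and design text name blockade of CDK7, a kinase of the general transcription factor TFIIH, and of CDK9, the kinase that releases paused RNA polymerase II. In the inhibitor part, wild-type cells of each line received SY200, V50 or both (SY200/V50) for 3, 6 and 12 h. The controls were a DMSO library and an untreated library labelled parental in each line, all 4 labelled 0 h. No control was labelled 3, 6 or 12 h. In comparisons with control, and of 12 h with 3 h, an effect of an agent cannot be told apart from a change with time. The labels do not say which agent acts on which kinase, or the unit of the numbers in their names. The knockout part is of MDA-MD-231 alone, 11 libraries: 1 parental (0 h), and at both 72 and 96 h a wild-type empty vector library and knockouts (KO) of CDK1, of CDK7, of CDK9 and of CDK7 with CDK9 (CDK7/9 KO). Whether a knockout is 1 clone or a pool is not given in the labels.

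Each condition was sequenced once per line and time, so the 2 lines (inhibitors) or the 2 times (knockouts) take the place of replicates. A p-value sets a tested difference against the spread left in the fit. That spread is how far changes disagreed between the lines or times. In the inhibitor part it also holds how far DMSO and parental libraries differed. Separate cultures are not stated. Library totals ran from 16985219 to 22859779 counts, and the members had 12 to 19476 counts in a library. The median of 12 MDA-MB-231 marker genes was 318 to 932 CPM (counts relative to the scaled library size) in the libraries of that line and 8.81 to 17.4 in the other. The median of 12 MDA-MB-468 markers was 156 to 216 CPM in its own libraries and 0.0692 to 1.11 in the other. Summed over 10 genes each, immune markers reached 3.73 to 67.2 CPM and fibroblast and endothelial markers 10.1 to 36.3 CPM. The DMSO library and the parental one were pooled as the control of a line, although they were further apart than counting noise allows (chi-square over degrees of freedom of 44.5 in MDA-MD-231, and of 27.5 for MDA-MD-468).

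Promoters of 4 members are shown. After 3 h with both agents, described further on, SPRED1 and SPRED2 had the shallowest values, and DUSP6 (-3.77) and DUSP1 (-3.38) were among the deeper falls. SOCS3 (-3.96) fell more than both, and DUSP5 (-3.49) more than DUSP1. A link between motifs and depth of fall was not tested. The RefSeq (GRCh38.p14) promoter entries used here were 12, for 8 of the 10 members. Each held 250 bases before and 50 after the start. The 250 bases before the start are printed 5' to 3', from chr5:172771196-172771445 (minus strand), chr12:89352502-89352751 (minus), chr15:38252586-38252835 (plus) and chr2:65432600-65432849 (minus). Capitals mark a TATA box (TATAAA) or the core of a cAMP response element (TGACGT, on either strand).
DUSP1: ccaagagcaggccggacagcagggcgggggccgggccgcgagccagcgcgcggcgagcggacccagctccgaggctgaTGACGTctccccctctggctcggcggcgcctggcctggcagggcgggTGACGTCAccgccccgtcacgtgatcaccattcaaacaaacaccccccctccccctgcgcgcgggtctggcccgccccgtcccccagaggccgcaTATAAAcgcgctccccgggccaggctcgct
DUSP6: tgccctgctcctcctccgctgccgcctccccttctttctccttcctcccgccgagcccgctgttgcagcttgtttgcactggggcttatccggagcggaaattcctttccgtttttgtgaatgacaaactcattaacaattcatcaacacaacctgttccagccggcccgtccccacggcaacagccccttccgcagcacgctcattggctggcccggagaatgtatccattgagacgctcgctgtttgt
SPRED1: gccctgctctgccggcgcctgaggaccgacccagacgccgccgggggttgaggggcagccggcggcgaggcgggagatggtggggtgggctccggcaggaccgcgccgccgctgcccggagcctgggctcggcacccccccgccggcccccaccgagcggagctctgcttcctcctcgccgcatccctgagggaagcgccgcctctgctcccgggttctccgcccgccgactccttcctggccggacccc
SPRED2: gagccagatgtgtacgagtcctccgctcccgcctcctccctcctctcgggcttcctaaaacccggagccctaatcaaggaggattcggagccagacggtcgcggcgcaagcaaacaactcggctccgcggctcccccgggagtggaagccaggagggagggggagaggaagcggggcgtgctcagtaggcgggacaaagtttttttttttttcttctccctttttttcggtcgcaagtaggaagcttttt
DUSP1 had the TATA box at 30 to 25 bases before the start and TGACGT at 2 places, 1 of which is a palindrome that matches on both strands. DUSP6 and SPRED1 had neither motif. The starts are those of RefSeq. By the GENCODE bounds, the printed stretches of DUSP6 (gene 89347232 to 89353271) and SPRED1 (gene 38252326 to 38357249) lie inside the gene. That of SPRED2 (gene end 65432637) lies partly inside, and that of DUSP1 (gene end 172771195) just outside. The motif contrast is thus between stretches placed differently relative to the annotated gene. SPRED2 had TGACGT only after its start, at bases 30 to 35, in the stretch not printed. Among all 35116 RefSeq promoters of that length, 11.5% held TATAAA and 7.98% held TGACGT.

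Over the 12 entries, both strands searched, TATAAA was in 2, TGACGT in 2, the AP-1 site TGANTCA in 1, the ETS site CCGGAA in 3, the STAT site TTCNNNGAA in 0 and the GC box GGGCGG in 7. The shares over all promoters were 7.71% for TGANTCA, 17.2% for CCGGAA, 7.66% for TTCNNNGAA and 45.0% for GGGCGG. These are matches of letters and were not tested for binding. DUSP4 and DUSP5 have no entry among the 12, so their promoters were not searched. The 10 genes differ in length in GENCODE release 29: SPRED1 spans 104.9 kb (chromosome 15, 38252326 to 38357249, plus strand) and SPRED2 spans 121.8 kb (chromosome 2, 65310851 to 65432637, minus strand), while the other 8 span 3.1 to 17.6 kb.

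Before treatment the members were higher in MDA-MD-231. DUSP6 stood at 378 CPM (DMSO) and 422 CPM (parental) in MDA-MD-231, against 11.9 and 13.4 CPM in MDA-MD-468. PHLDA1 stood at 665 and 756 CPM against 35.8 and 56.7 CPM. SPRED2 stood at 75.8 and 68.6 CPM against 44.1 and 42.4 CPM. No control library of MDA-MD-468 reached a control library of MDA-MD-231 for any of the 3 genes. All 10 members had a log2 difference below 0, and 8 were lower in MDA-MD-468 at an edgeR adjusted p under 0.05, the threshold used throughout. Of all genes tested, 53.8% passed in this comparison of lines. The log2 differences (± SE) were -4.98 ± 0.39 for DUSP6 (adjusted p = 7.53e-08), -3.94 ± 0.36 for PHLDA1, -3.01 ± 0.50 for DUSP4, -2.93 ± 0.39 for SPRY4, -2.69 ± 0.31 for SOCS3, -1.64 ± 0.30 for SPRED1, -1.63 ± 0.46 for DUSP5 and -1.41 ± 0.33 for SPRY2. DUSP1 (-1.17 ± 0.53, adjusted p = 0.074) and SPRED2 (-0.74 ± 0.33, adjusted p = 0.071) did not pass. CPM of 3' tags compares libraries, not genes, so no order between members is read from it.

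DUSP5, a nuclear phosphatase specific for ERK, had the deepest loss with both agents as the mean of the times. In MDA-MD-231 it was at 130.5 and 81.7 CPM in the controls, at 40.5, 121 and 118 CPM after 3, 6 and 12 h of SY200, at 4.48, 22.7 and 39.2 CPM with V50, and at 4.88, 10.6 and 5.85 CPM with both. MDA-MD-468 had 28.7 and 39.8 CPM in the controls, 11.9, 28.0 and 33.4 CPM with SY200, 6.12, 6.12 and 13.6 CPM with V50, and 4.94, 2.63 and 1.97 CPM with both. Every V50 and every SY200/V50 library lay below both controls of its line. With both agents DUSP5 fell by 3.70 ± 0.32 on the log2 scale as the mean of the times (adjusted p = 3.59e-07). With V50 alone it fell at each time, with log2 changes of -3.30 ± 0.49 at 3 h, -2.33 ± 0.46 at 6 h and -1.38 ± 0.43 at 12 h (adjusted p = 0.0021, 0.0024 and 0.038). The 12 h call was lost (adjusted p above 0.05) with no filter on low counts, with DMSO alone as control, and without any 1 of 5 libraries: MDA-MD-231 DMSO, SY200 3 h or V50 12 h, or MDA-MD-468 parental or V50 12 h.

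DUSP6, the cytoplasmic phosphatase of ERK and a common readout of ERK activity, dropped and came back with V50. In MDA-MD-231 its level was 53.1 CPM at 3 h of V50, 559 CPM at 6 h and 232 CPM at 12 h, around controls of 378 and 422 CPM. In MDA-MD-468 it was 2.37, 10.96 and 10.6 CPM, with controls of 11.9 and 13.4 CPM. The MDA-MD-231 library at 6 h was thus above both of its controls, and the others were below theirs. With both agents the levels were 35.1, 220.3 and 137 CPM in MDA-MD-231 and 0.592, 1.77 and 4.66 CPM in MDA-MD-468, all below the controls. The value of 0.592 CPM rests on 12 counts. DUSP6 fell by 2.72 ± 0.39 at 3 h of V50 (adjusted p = 0.0015) and by 2.25 ± 0.25 as the mean of the times with both agents (adjusted p = 2.69e-06). With SY200 it was at 171, 289 and 254 CPM in MDA-MD-231 and at 3.98, 7.39 and 9.96 CPM in MDA-MD-468, below both controls in all 6 libraries, but the mean difference of -0.84 ± 0.24 did not pass (adjusted p = 0.077). DESeq2 called it (adjusted p = 0.037).

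DUSP1 and DUSP4 are nuclear phosphatases that act on ERK and on the stress kinases JNK and p38. DUSP1 was at 45.1 and 50.6 CPM in the MDA-MD-231 controls, at 3.61, 16.3 and 30.5 CPM with V50 and at 2.27, 7.55 and 10.8 CPM with both agents. In MDA-MD-468 its controls already differed (30.5 CPM with DMSO, 12.1 CPM parental), V50 libraries were at 16.6, 73.1 and 21.3 CPM, and those with both agents at 4.29, 17.4 and 10.0 CPM. The 6 h V50 library of MDA-MD-468 was the only V50 library of DUSP1 above both controls of its line. DUSP1 fell by 2.18 ± 0.49 with both agents (adjusted p = 0.0016), and its difference with V50 of -0.59 ± 0.49 did not pass (adjusted p = 0.40). DUSP4 lies on chromosome 8 (29333064 to 29350668, minus strand). It was at 392 and 559 CPM in the MDA-MD-231 controls, at 94.8, 259.8 and 299.6 CPM with V50 and at 76.7, 135 and 33.0 CPM with both agents. In MDA-MD-468 its controls were 31.7 and 86.1 CPM, the V50 libraries 17.96, 34.8 and 24.0 CPM, and those with both agents 14.4, 15.3 and 19.7 CPM. DUSP4 fell by 1.25 ± 0.31 with V50 (adjusted p = 0.0086) and by 2.21 ± 0.31 with both agents (adjusted p = 2.72e-05).

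SPRY2 and SPRY4 encode Sprouty proteins, and in both lines their V50 libraries were lowest at 3 h, as those of DUSP6 were. SPRY2 in MDA-MD-231 was at 69.7 and 103 CPM in the controls, 9.98 CPM at 3 h of V50, 101 CPM at 6 h and 81.7 CPM at 12 h. In MDA-MD-468 it was at 28.0 and 36.9 CPM in the controls and at 7.20, 27.7 and 25.8 CPM with V50. From 6 h on, the V50 libraries lay within the controls in MDA-MD-231 and just under them in MDA-MD-468. With both agents SPRY2 stayed below the controls, at 11.6, 42.0 and 32.3 CPM in MDA-MD-231 and 5.28, 8.21 and 12.7 CPM in MDA-MD-468. SPRY2 fell by 2.58 ± 0.32 at 3 h of V50 (adjusted p = 0.00057) and by 1.86 ± 0.20 with both agents as the mean of the times (adjusted p = 2.39e-06). SPRY4 ranged from 29.7 to 196 CPM with V50 and from 22.2 to 59.0 CPM with both agents in MDA-MD-231, with controls of 161 and 139.8 CPM. In MDA-MD-468 it ranged from 4.84 to 12.9 CPM and from 3.55 to 5.20 CPM, with controls of 15.8 and 23.6 CPM. SPRY4 fell by 2.20 ± 0.41 at 3 h of V50 (adjusted p = 0.0065) and by 2.17 ± 0.27 with both agents (adjusted p = 8.92e-06).

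SPRED1 and SPRED2, which bind neurofibromin and hold back RAS, had the members' smallest differences from control at 3 h with V50 and with both agents, and by 12 h the levels with these 2 treatments had parted. SPRED2 in MDA-MD-231 was at 75.8 and 68.6 CPM in the controls, at 38.3, 26.8 and 85.5 CPM with V50, and at 32.8, 19.3 and 10.6 CPM with both agents. In MDA-MD-468 it was at 44.1 and 42.4 CPM in the controls, at 17.8, 30.6 and 39.1 CPM with V50, and at 17.3, 13.6 and 17.1 CPM with both agents. At 12 h the MDA-MD-231 library with V50 was above both controls, while the library with both agents was the lowest of the 11 of that line. SPRED1 ranged from 26.3 to 47.6 CPM with V50 and from 16.6 to 34.4 CPM with both agents in MDA-MD-231 (controls 69.4 and 65.9 CPM). In MDA-MD-468 it ranged from 11.8 to 26.0 CPM and from 10.3 to 11.4 CPM (controls 23.9 and 19.4 CPM). With both agents SPRED1 fell by 1.23 ± 0.23 (adjusted p = 0.00029) and SPRED2 by 1.64 ± 0.23 (adjusted p = 2.32e-05). With V50 the mean differences of -0.60 ± 0.23 for SPRED1 and -0.64 ± 0.23 for SPRED2 did not pass (adjusted p = 0.065 and 0.051).

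SOCS3, the STAT3-induced brake on JAK signalling, had the next deepest fall after DUSP5 with both agents as the mean of the times. At 3 h its change was the deeper of the 2, and at 12 h those of DUSP4 and SPRY4 were deeper than that of SOCS3. In MDA-MD-231 it was at 37.8 and 46.1 CPM in the controls, at 3.36, 15.2 and 22.3 CPM with V50, and at 2.09, 4.34 and 5.78 CPM with both agents. The values in MDA-MD-468 were 7.02 and 6.01 CPM in the controls, 1.65, 4.14 and 6.88 CPM with V50, and 0.592, 1.61 and 2.10 CPM with both agents. All libraries with both agents were below both controls of their line, whereas V50 at 12 h lay within the controls in MDA-MD-468. SOCS3 fell by 2.99 ± 0.26 with both agents, 7.97-fold (adjusted p = 3.66e-07), and fell by 1.48 ± 0.24 with V50 (adjusted p = 0.00079). PHLDA1 was at 124, 301 and 429 CPM with V50 and at 122, 272 and 98.6 CPM with both agents in MDA-MD-231 (controls 665 and 756 CPM). Its MDA-MD-468 values were 20.2, 41.4 and 26.1 CPM and 13.3, 21.8 and 14.6 CPM (controls 35.8 and 56.7 CPM). PHLDA1 fell by 1.08 ± 0.25 with V50 (adjusted p = 0.0068) and by 1.89 ± 0.26 with both agents (adjusted p = 1.88e-05).

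**Figure D1:**
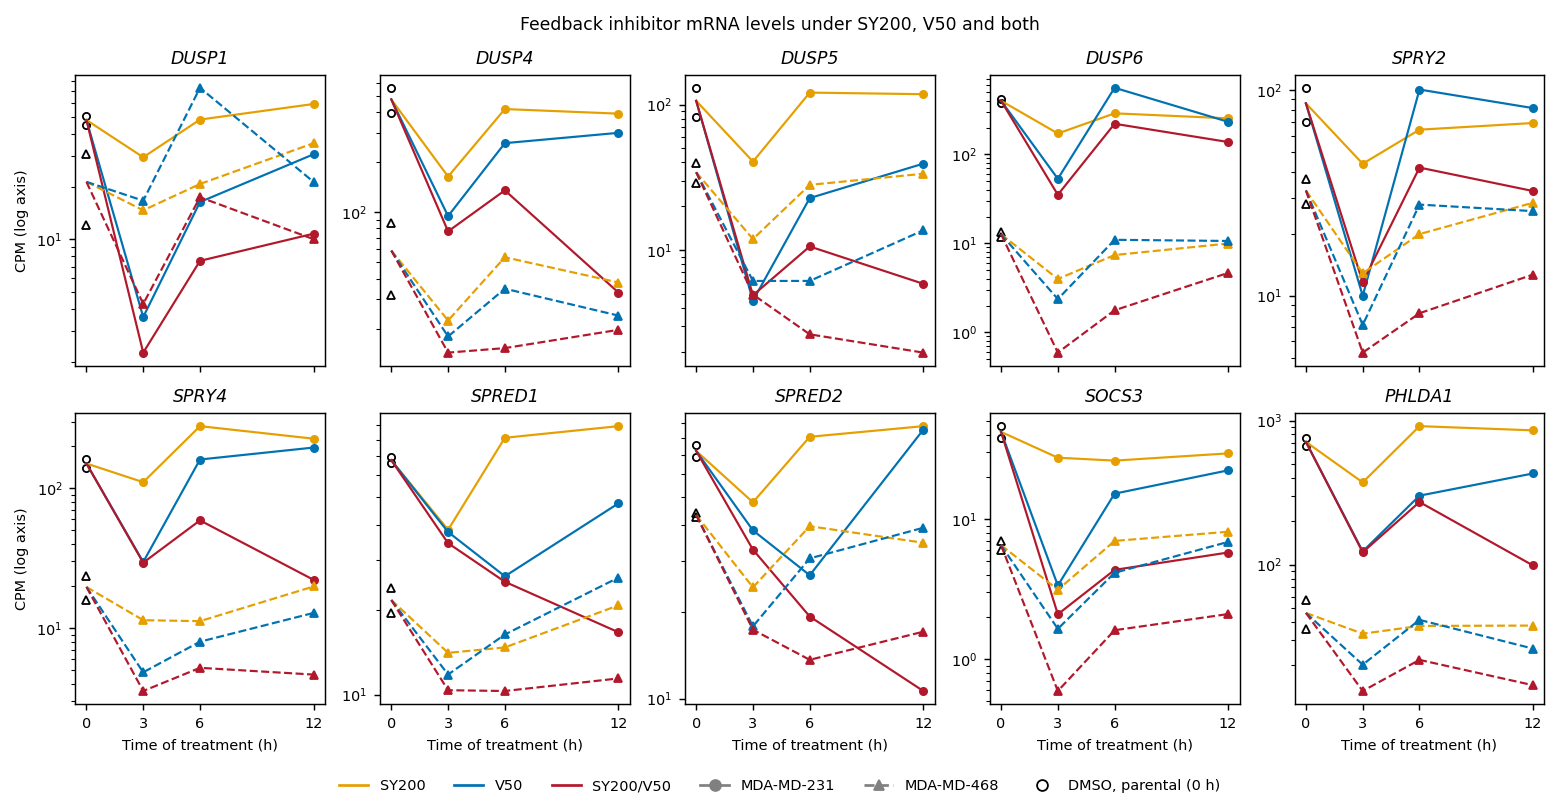
CPM of each member (log axis) against time of treatment in h, 1 library per point. Solid lines with circles are MDA-MD-231, dashed lines with triangles MDA-MD-468, open symbols at 0 h the DMSO and parental libraries, and lines start from their mean. V50 (blue) and SY200/V50 (red) start from similar levels at 3 h for most genes and separate by 12 h, for example DUSP5 at 39.2 and 5.85 CPM in MDA-MD-231.

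With both agents, all 10 members fell as the mean of the times, in a comparison in which 48.2% of all genes tested passed the threshold. The members' median log2 change was -2.18, against 0.09 over all genes tested, and single members ranged from -1.23 to -3.70. Counts of members that fell were 9 at 3 h (7.54% of all genes tested passed), 9 at 6 h (34.7%) and 9 at 12 h (49.6%). SPRED1 missed at 3 h (-1.01 ± 0.32, adjusted p = 0.063) and DUSP1 missed at 6 h (-1.45 ± 0.70, adjusted p = 0.12) and 12 h (-1.73 ± 0.71, adjusted p = 0.053). DESeq2 called SPRED1 at 3 h (adjusted p = 0.028) and DUSP1 at 12 h (adjusted p = 0.029). At 3 h, when the overall share of calls was smallest, the changes ran from -3.96 ± 0.43 for SOCS3, -3.77 ± 0.42 for DUSP6, -3.49 ± 0.50 for DUSP5 and -3.38 ± 0.80 for DUSP1 to -1.22 ± 0.33 for SPRED2. Without the MDA-MD-231 library of both agents at 3 h, 4 members passed there: DUSP5, DUSP6, SPRY2 and SOCS3. In MDA-MD-231 all 10 members had all 3 libraries with both agents below both controls, and in MDA-MD-468 9 had. The exception, DUSP1, had 2 of 3. The share of all genes so placed is not given here, so these counts are not read as particular to the members. In bulk libraries scaled to their own totals, less of an mRNA in each cell cannot be told apart from fewer cells that carry it.

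**Figure D2:**
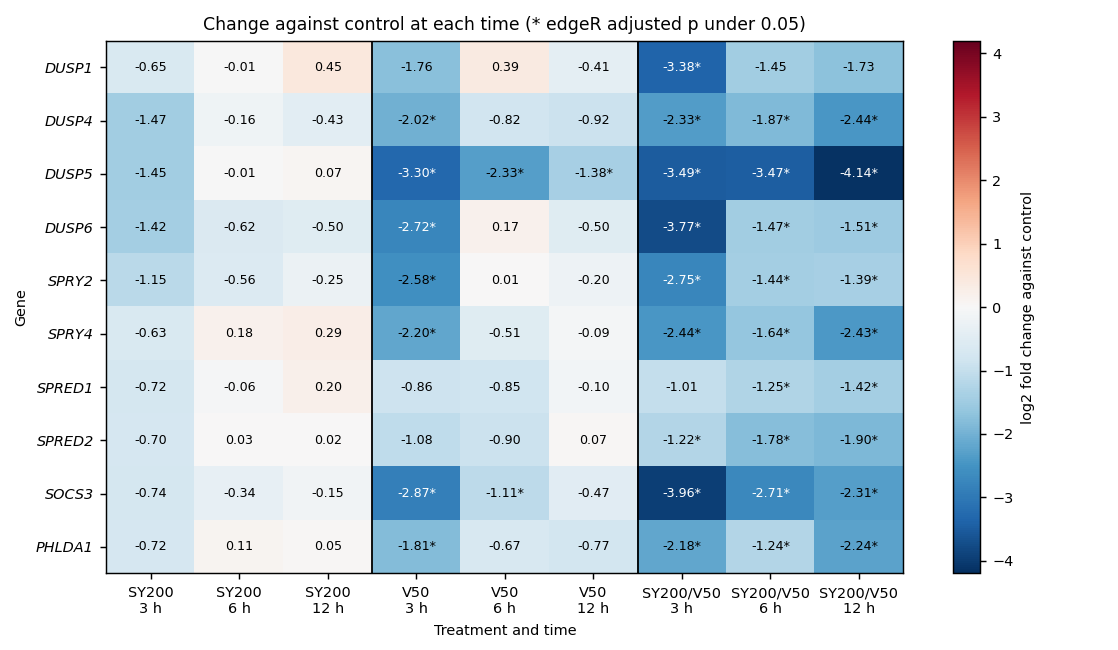
log2 fold change against control for each member (rows) at each treatment and time (columns), from the edgeR model over both lines, with blue below and red above control. An asterisk marks an adjusted p under 0.05: V50 has 7 at 3 h, 2 at 6 h and 1 at 12 h, SY200/V50 has 9 at each time, and SY200 has 0.

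With V50 alone 7 members fell as the mean of the times, all but DUSP1, SPRED1 and SPRED2, with 22.3% of all genes passing. Most calls came early. At 3 h 7 members fell, with 4.10% of all genes passing. The changes there were -3.30 ± 0.49 for DUSP5, -2.87 ± 0.39 for SOCS3, -2.72 ± 0.39 for DUSP6, -2.58 ± 0.32 for SPRY2, -2.20 ± 0.41 for SPRY4, -2.02 ± 0.46 for DUSP4 and -1.81 ± 0.38 for PHLDA1. The remaining 3 did not pass: DUSP1 was at -1.76 ± 0.72, SPRED2 at -1.08 ± 0.32 and SPRED1 at -0.86 ± 0.32. At 6 h 2 members passed, DUSP5 and SOCS3 (-1.11 ± 0.34, adjusted p = 0.027), although 23.4% of all genes did, and at 12 h 1 member, DUSP5, with 15.2% of all genes. SPRED1 and SPRED2 just missed at 6 h (-0.85 ± 0.32 and -0.90 ± 0.32, adjusted p = 0.064 and 0.051). DESeq2 called SPRED2 at 3 h (adjusted p = 0.025) and at 6 h (adjusted p = 0.043). The median of the members was -2.11 at 3 h, -0.75 at 6 h and -0.44 at 12 h, beside 0.06, 0.05 and -0.01 over all genes tested. Without the MDA-MD-231 V50 library at 3 h, 1 member passed there (SPRY2). At 6 h, 1 member passed without MDA-MD-231 DMSO, parental or V50 6 h, and 4 without the 12 h library of both agents of either line. With DMSO alone as control 3 members passed as the mean of the times, DUSP5, DUSP6 and SOCS3.

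SY200 alone gave 0 calls among the members as the mean of the times, at 3 h, at 6 h and at 12 h by edgeR, with 1.98%, 0.423%, 0.264% and 2.43% of all genes passing. At an unadjusted p under 0.05 there were 3, 7, 0 and 0 members, beside 3195, 2322, 2310 and 3372 of the 18911 genes tested. DESeq2 called 1 (DUSP6), 2 (DUSP6 and SPRY2), 0 and 0 members, and the share of all genes that it called is not given here. At 3 h the log2 values were nevertheless all below 0, from -1.47 ± 0.45 for DUSP4, -1.45 ± 0.43 for DUSP5, -1.42 ± 0.35 for DUSP6 and -1.15 ± 0.29 for SPRY2 to -0.63 for SPRY4, with edgeR adjusted p from 0.079 up. At 3 h each member was below the mean of its controls in both lines, at 34.4 to 73.5% of it in MDA-MD-231 (median 54.5%) and 31.4 to 71.7% in MDA-MD-468 (median 52.1%). By 12 h the median stood at 116% in MDA-MD-231 and at 91.5% for MDA-MD-468. As the mean of the times SPRY2 was at -0.65 ± 0.20 (adjusted p = 0.098). Leaving out a 6 or 12 h library of both agents, of either line, gave 1 member as the mean of the times and 1 at 3 h.

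The comparison of both agents with V50 alone sets treated libraries against treated libraries, and the controls enter only the fit's estimate of spread. All 10 members were lower with both agents as the mean of the times (19.9% of all genes passed): DUSP1 by -1.59 ± 0.45, SOCS3 by -1.51 ± 0.25, DUSP5 by -1.36 ± 0.29, DUSP6 by -1.23 ± 0.23, SPRY4 by -1.23 ± 0.25, SPRED2 by -0.998 ± 0.21, DUSP4 by -0.96 ± 0.29, SPRY2 by -0.94 ± 0.19, PHLDA1 by -0.81 ± 0.23 and SPRED1 by -0.63 ± 0.21, with adjusted p from 0.00074 (SOCS3) to 0.042 (SPRED1). The SPRED1 call was lost with DESeq2 size factors (adjusted p = 0.053), with no filter (0.066) and without any 1 of 11 of the 22 libraries. The count was 6 without any 1 of 5 libraries: both agents at 3, 6 or 12 h in MDA-MD-231, or V50 at 3 or 6 h in MDA-MD-468. At 12 h 8 members were lower (37.6% of all genes passed), DUSP5 by -2.76 ± 0.53, SPRY4 by -2.33 ± 0.45, SPRED2 by -1.97 ± 0.37, SOCS3 by -1.85 ± 0.41, DUSP4 by -1.52 ± 0.51, PHLDA1 by -1.48 ± 0.42, SPRED1 by -1.32 ± 0.36 and SPRY2 by -1.19 ± 0.32. DUSP1 (-1.31 ± 0.77) and DUSP6 (-1.01 ± 0.39, adjusted p = 0.053) did not pass. The members' median at 12 h was -1.50 beside 0.24 over all genes tested. Without the MDA-MD-231 library of both agents at 12 h, 3 members passed: DUSP5, SPRY4 and SPRED2.

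The ratio of CPM with both agents to CPM with V50 alone shows when the treatments parted. In MDA-MD-231 the median ratio over the members was 0.885 at 3 h, 0.464 at 6 h and 0.244 at 12 h. In MDA-MD-468 it was 0.734, 0.435 and 0.439. The lowest ratios at 12 h were 0.110 for DUSP4, 0.113 for SPRY4 and 0.124 for SPRED2 in MDA-MD-231, where DUSP5 had 0.149, and 0.144 for DUSP5 in MDA-MD-468. DUSP4 at 12 h differed between the lines, with 0.821 in MDA-MD-468. At 3 h DUSP1, DUSP6 and SOCS3 already stood at 0.258, 0.250 and 0.360 in MDA-MD-468 and at 0.627, 0.662 and 0.622 in MDA-MD-231. Each ratio is of 1 library to 1 library, so it has no error of its own.

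**Figure D3:**
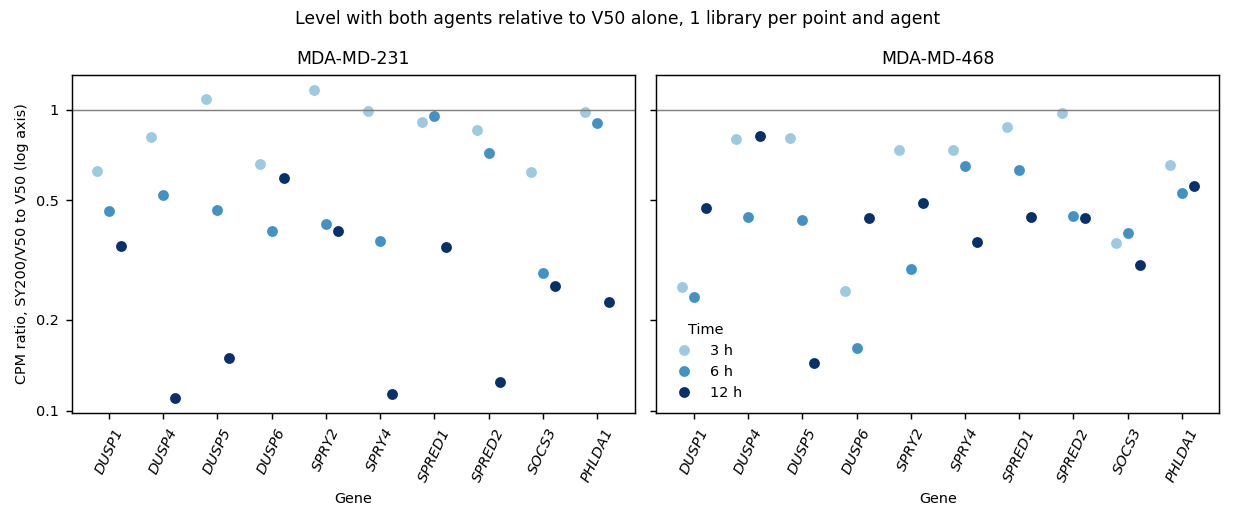
Ratio of CPM with SY200/V50 to CPM with V50 alone (log axis) for each member, by line and time (3, 6 and 12 h, light to dark), 1 library per agent. The line at 1 marks equal levels; at 12 h all points are under 1, down to 0.110 for DUSP4 in MDA-MD-231.

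Against SY200 alone, all 10 members were lower with both agents as the mean of the times (46.0% of all genes passed). DUSP5 was lower by -3.24 ± 0.30, SOCS3 by -2.58 ± 0.24, DUSP1 by -2.12 ± 0.46, SPRY4 by -2.11 ± 0.25, PHLDA1 by -1.70 ± 0.24, DUSP4 by -1.52 ± 0.29, SPRED2 by -1.42 ± 0.21, DUSP6 by -1.41 ± 0.23, SPRY2 by -1.20 ± 0.19 and SPRED1 by -1.04 ± 0.21. The adjusted p ran from 1.04e-06 for DUSP5 to 0.0014 for DUSP1.

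With V50, 6 of the 10 members rose between 3 and 12 h. In the test of 12 h against 3 h, 12.8% of all genes passed, and the rises were SOCS3 2.40 ± 0.42, SPRY2 2.38 ± 0.34, DUSP6 2.22 ± 0.42, SPRY4 2.10 ± 0.44, DUSP5 1.92 ± 0.50 and SPRED2 1.15 ± 0.36. The SPRED2 rise was at the edge of the threshold (adjusted p = 0.044). It was lost with DESeq2 size factors (0.054), no filter (0.072), mitochondrial scaling (0.11), DMSO alone as control (0.051) and without any 1 of 13 of the 22 libraries, 3 of them controls. DUSP1 (1.34 ± 0.77), DUSP4 (1.10 ± 0.49), PHLDA1 (1.04 ± 0.41) and SPRED1 (0.76 ± 0.36) did not pass. Without the MDA-MD-231 V50 library at 3 h 1 rise passed (SPRY2), and without the one at 12 h 3 did (DUSP6, SPRY2 and SOCS3). With both agents 3 members rose (18.3% of all genes passed), DUSP6 by 2.26 ± 0.43, SOCS3 by 1.64 ± 0.46 and SPRY2 by 1.37 ± 0.33. DUSP1 was at 1.65 ± 0.82 and SPRED2 at -0.68 ± 0.37, neither past the threshold, and the members' median was -0.02. Without the MDA-MD-231 library of both agents at 3 h 1 rise passed (DUSP6). Scaled to mitochondrial mRNAs (median over all genes -1.13), 1 member rose, DUSP6 (1.12), and 6 fell: SPRED2, DUSP5, SPRED1, DUSP4, PHLDA1 and SPRY4. With SY200 edgeR called 0 members, with 1.95% of all genes passing. DESeq2 called 1 (DUSP5), and its share of all genes is not given here. At an unadjusted p under 0.05 there were 6 members, beside 3972 of the 18911 genes tested. SPRED1 and SPRED2 are the 2 longest genes, and by 12 h with both agents they had fallen by 1.42 ± 0.33 and 1.90 ± 0.34. Both falls were shallower than the members' median change at that time, -2.07. The part of gene length in their course was not tested.

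The treatment effects were not found to differ between the lines. For SY200, V50 and SY200/V50, edgeR's interaction terms (MDA-MD-468 minus MDA-MD-231) gave 0 calls among the members and 0 among all genes, 0% in each of the 3 comparisons. At an unadjusted p under 0.05 there were 0, 2 and 2 members, beside 1048, 1873 and 3009 of the 18911 genes tested. DESeq2 called 0 members and 33, 120 and 421 of all genes. The widest values were 2.46 ± 0.71 for DUSP1 with V50 (adjusted p = 0.30), 1.83 ± 0.71 for DUSP1 with both agents (adjusted p = 0.23) and 1.15 ± 0.43 for SOCS3 with both agents (adjusted p = 0.22), each with the higher value in MDA-MD-468. With 1 library per line, treatment and time, standard errors of 0.39 to 0.71 on the log2 scale limit what this test can show.

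Mitochondrially encoded mRNAs took a larger share of counts in most treated libraries than in the controls of the line. They took 2.17 and 2.51% of counts in the MDA-MD-231 controls and 3.88 and 3.93% in those of MDA-MD-468. With both agents the share was 3.21, 4.66 and 5.05% at 3, 6 and 12 h in MDA-MD-231 and 7.06, 9.24 and 13.5% in MDA-MD-468. With V50 it was 2.88, 3.35 and 3.82% in MDA-MD-231 and 7.38, 7.75 and 7.42% in MDA-MD-468. With SY200 it was 2.42, 2.91 and 2.65% in MDA-MD-231 and 6.67, 5.66 and 5.72% in MDA-MD-468. Scaled to the 13 mitochondrial mRNAs in place of TMM factors, the median over all genes tested moved to -1.33 with both agents, -0.92 with V50 and -0.44 with SY200, and the members' median to -3.58, -1.89 and -0.71. In the comparison of lines the median over all genes moved to -0.63, and all 10 members were then lower in MDA-MD-468. All 10 members then passed with both agents at each time and with V50 as the mean of the times, and with SY200 5 passed as the mean of the times and 8 at 3 h. The share of all genes passing under this scaling is not given here. Counts of members under it, in any comparison, are thus not read as particular to them. Which scaling follows the RNA content of the cells was not tested.

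In the knockout libraries the members stayed near empty vector. The targeted mRNAs were low in the libraries labelled as their knockouts: CDK1 at 76.4 and 79.4 CPM against 166 and 266 CPM with empty vector (and 78.0 CPM in the parental library of that part), CDK7 at 12.9 to 15.5 CPM against 45.5 and 62.7 CPM, and CDK9 at 30.6 to 33.1 CPM against 65.4 and 58.5 CPM. A 3' tag can lie outside the edited part, so a remaining level says little of the protein. edgeR called 0 members in each knockout, while 0.352% of all genes passed in CDK1 KO, 0.0238% in CDK7 KO, 8.16% in CDK9 KO and 11.3% in CDK7/9 KO. In the same order, 4, 3, 4 and 1 members had an unadjusted p under 0.05, beside 3781, 2887, 4717 and 5164 of the 16783 genes tested. DESeq2 called 1 (DUSP1), 0, 0 and 0 members, and the share of all genes that it called is not given here. Over the 10 members and both times, CPM relative to empty vector of the same time had a median of 1.09 in CDK1 KO (0.881 to 1.77), 1.07 in CDK7 KO (0.799 to 1.49), 1.06 in CDK9 KO (0.693 to 1.69) and 1.04 in CDK7/9 KO (0.694 to 1.495).

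DUSP1 had the widest spread among the knockouts. It was at 85.1 CPM at 72 h and 68.7 CPM at 96 h with empty vector, at 109.5 and 121 CPM in CDK1 KO, at 90.5 and 74.5 CPM in CDK7 KO, at 59.0 and 61.9 CPM in CDK9 KO and at 59.1 and 59.0 CPM in CDK7/9 KO. Both CDK1 KO libraries were above and all 4 libraries with CDK9 knocked out below both empty vector libraries. The log2 differences were 0.60 ± 0.12 for CDK1 KO (adjusted p = 0.068), -0.34 ± 0.13 for CDK9 KO (adjusted p = 0.11) and -0.37 ± 0.13 for CDK7/9 KO (adjusted p = 0.078). The empty vector libraries themselves differed: SPRY4 was at 215 CPM at 72 h and 133 CPM at 96 h, and SPRED2 at 91.3 and 59.99 CPM. The log2 differences moved with them. In CDK1, CDK7, CDK9 and CDK7/9 KO, SPRY4 was at 0.43, 0.16, 0.41 and 0.15 in the full fit. Without empty vector at 72 h it was at 0.71, 0.44, 0.69 and 0.43. In the same order, SPRED2 was at 0.38, 0.23, 0.37 and 0.30 in the full fit and at 0.66, 0.51, 0.65 and 0.58 without that library. Without empty vector at 96 h, DUSP1 was at 0.45 in CDK1 KO, -0.49 in CDK9 KO and -0.52 in CDK7/9 KO, and SPRED1 at 0.28 in CDK9 KO. The lone empty vector library is then assumed to vary like the other groups. With no filter on low counts 2, 0, 2 and 1 members passed in CDK1, CDK7, CDK9 and CDK7/9 KO. The share of all genes passing without the filter is not given here. The mitochondrial share of counts was 5.04 to 5.98% in the 4 libraries with CDK9 knocked out and 3.77 and 2.599% with empty vector. Scaled to mitochondrial mRNAs, 8 members were lower in CDK9 KO and 10 in CDK7/9 KO, beside a median over all genes of -0.82 and -0.81. The share of all genes passing under this scaling is not given here.

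**Figure D4:**
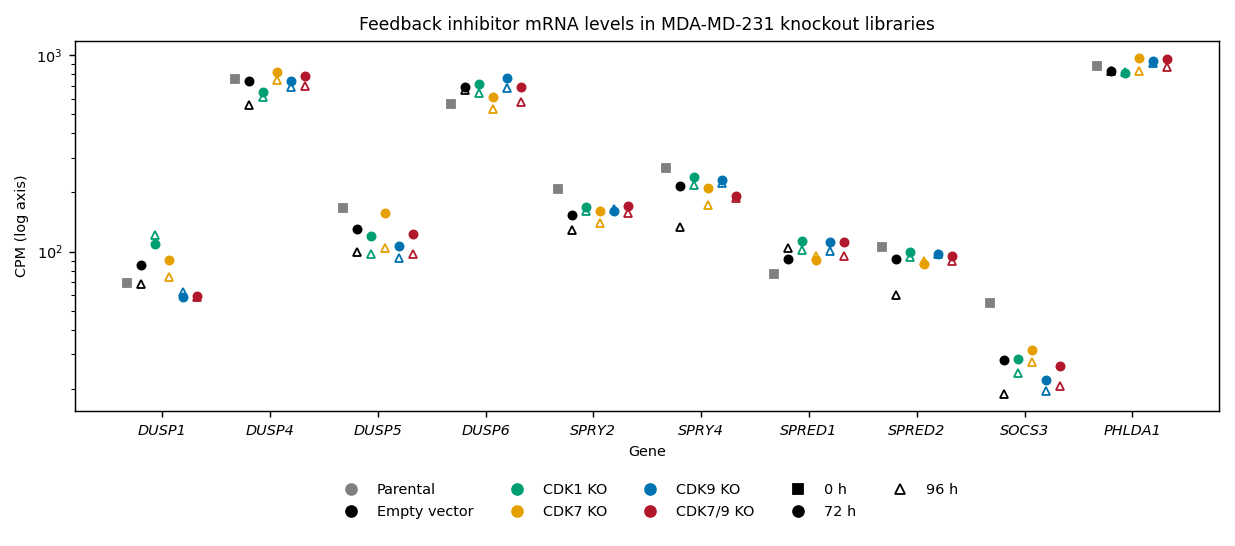
CPM (log axis) of each member in the 11 MDA-MD-231 libraries of the knockout part, 1 point per library, with the parental library as a square (0 h), 72 h as filled circles and 96 h as open triangles. DUSP1 ranges from 59.0 CPM with CDK9 knocked out to 121 CPM in CDK1 KO, and SOCS3 is highest in the parental library at 55.0 CPM.

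Other genes of the same pathways were measured with both agents as the mean of the times, where 48.2% of all genes passed (24.0% rose and 24.2% fell). Of 29 further feedback inhibitors tested, 19 fell and 1 rose (65.5% fell, median -0.89). SOCS6 and SOCS5, of the SOCS family, were at -2.03 ± 0.22 and -1.32 ± 0.16, DUSP7, a cytoplasmic ERK phosphatase, at -1.87 ± 0.31, and ERRFI1, an inhibitor of EGFR, at -1.07 ± 0.18. Of 26 ERK output genes 12 fell and 1 rose (46.2% fell, median -0.62), so that those passing either way, 13 of 26, were close to the share over all genes. Among them were the transcription factor genes MYC (-2.25 ± 0.39), JUN (-1.87 ± 0.31) and FOSL2 (-1.81 ± 0.27) and the receptor gene EPHA4 (-1.87 ± 0.30). With V50 alone 11 of the 29 feedback inhibitors fell and 1 rose, and 5 of the 26 output genes fell and 2 rose, beside 11.9% of all genes that fell and 10.4% that rose. With SY200 alone 1 feedback inhibitor and 0 output genes fell, and 0 of either rose, where 1.98% of all genes passed.

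Genes of the cascades that the members restrain passed in both directions, in shares of 33.3 to 61.5% of a list around the 48.2% of all genes tested. Of 21 genes of the RAS and ERK cascade 6 fell and 4 rose (47.6%), with GAB1, an adaptor, at -1.45 ± 0.34, the RAS exchange factors SOS1 and SOS2 at -0.94 ± 0.20 and -0.91 ± 0.17, and MAPK3, which encodes ERK1, at 0.89 ± 0.15. Of 13 stress MAP kinase genes 5 fell and 3 rose (61.5%), with MAP3K1 at -1.96 ± 0.28, MAP2K4 at -1.30 ± 0.17, MAP2K7 at -0.91 ± 0.15 and MAPK13 at 0.68 ± 0.14. Of 18 JAK and STAT genes 2 fell and 4 rose (33.3%), with JAK2 at -0.94 ± 0.27, STAT6 at 0.80 ± 0.20, TYK2 at 0.65 ± 0.12 and STAT3 at 0.44 ± 0.14. Those rises depend on the scaling. Scaled to mitochondrial mRNAs, which lowered the median over all genes, 0 genes of these lists rose. MAPK3, MAPK13, STAT6, TYK2 and STAT3 were then at -0.54, -0.75, -0.62, -0.77 and -0.97. The share of all genes that rose under this scaling is not given, and which scaling follows the RNA content was not tested. With V50 alone 3, 3 and 0 genes of the 3 lists fell and 0 rose (22.3% of all genes passed), and with SY200 alone 0 passed (1.98%).

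The members varied together across the 22 inhibitor libraries once each line was centred. Over their 45 pairs Pearson's r of log2 CPM had a median of 0.797, from 0.505 for DUSP6 with SPRED2 to 0.955 for DUSP6 with SPRY2, and SPRED1 with SPRED2 reached 0.931. Among 9790 genes with a mean of at least 10 CPM, those most like the mean of the members were ZNF217 (r = 0.977), ZNF646 (0.960), PLK2 (0.959), MOCS3 (0.953) and ZNF319 (0.948). The closest non-member was CHD1 for SPRED2 (0.986), PURA for SPRED1 (0.978), ZNF646 for SPRY4 (0.964), ZNF217 for PHLDA1 (0.956) and for DUSP5 (0.937), IER5 for SOCS3 (0.947), ZFP36L1 for DUSP4 (0.933), MIDN for DUSP6 (0.913), MYC for SPRY2 (0.912) and TGIF1 for DUSP1 (0.898). These values describe libraries that share treatments and scaling, and the 10 members were themselves chosen as one group of pathway genes.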

How the data were processed

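The authors deposited raw read counts of each gene symbol in each library, with no normalization. Reads were checked with FastQC and aligned with STAR 2.7.10a to GRCh38, per the submitters' processing notes. How reads were counted (tool, annotation, strand, molecular identifiers) is not given in the sources used here, so reads may not be independent molecules. Antisense genes overlap exons of DUSP6 and PHLDA1 in GENCODE release 29, and reads of the 2 strands may be mixed.

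Counts were tested in R 4.3.3 with edgeR 4.0.16 (quasi-likelihood F test, TMM factors, filterByExpr with a minimum count of 10 and total of 15, Benjamini-Hochberg adjustment over all genes tested). The inhibitor model over 22 libraries held the cell line as a block, since libraries of a line come from the same cells, and a condition with 10 levels (11 residual degrees of freedom). Terms for each treatment in MDA-MD-468 were added to compare lines (8). The knockout model over 10 libraries held time and genotype (4), without the parental library, which shares no time. A standard error is the log2 change divided by the root of its F statistic. CPM uses TMM-scaled library sizes within each part. The script was tested on simulated data.

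Alternatives were DESeq2 1.42.0, its size factors in edgeR, no filter, mitochondrial scaling, DMSO alone as control, no block, and leaving out each library. For an alternative, the share of all genes passing is not given, except as counts for DESeq2's interaction terms. Counts of members under an alternative are thus not read as particular to them. All members are named, with up to 4 genes of each other list by adjusted p among genes averaging 10 CPM or more, and the genes most like the members. The members and lists were chosen with earlier results of these data known. All treatment comparisons with control share the same 4 control libraries, and all knockout comparisons the same 2.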

Additional observations from a re-analysis of the deposited data

Results flagged for a closer look

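The parental MDA-MD-231 library of the knockout part enters no comparison, because no other library shares its time, and 5 members were higher in it than in all 10 other libraries of that part. SOCS3 was at 55.0 CPM there, against 27.9 and 18.8 CPM with empty vector and at most 31.4 CPM in a knockout. SPRY4 was at 267 CPM (empty vector 215 and 133 CPM, knockouts at most 241 CPM), SPRY2 at 209 CPM (153 and 129 CPM, at most 169.8 CPM), DUSP5 at 167 CPM (131 and 99.9 CPM, at most 157 CPM) and SPRED2 at 106 CPM (91.3 and 59.99 CPM, at most 99.4 CPM). DUSP6 at 563 CPM and SPRED1 at 76.4 CPM were below both empty vector libraries. This is 1 library, and the differences were not tested. The share of all genes that were highest in it is not given, so the count of 5 is not read as particular to the members.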

How the results depend on the processing

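No log2 change stated in the text for a member in a full comparison changed sign under any alternative, but counts of members called moved. With DESeq2 in place of edgeR, SY200 gave 1 member as the mean of the times, 2 at 3 h and 1 for 12 h against 3 h, and CDK1 KO gave 1. It also called SPRED1 (3 h) and DUSP1 (12 h) with both agents and SPRED2 with V50 (3 and 6 h), which edgeR did not. With no filter, V50 at 12 h gave 0, CDK1 KO 2, CDK9 KO 2 and CDK7/9 KO 1. For DESeq2 and for no filter, the share of all genes passing these comparisons is not given, so added calls are not read as particular to the members. No filter and DESeq2 size factors each also ended the SPRED1 call for both agents against V50 and the SPRED2 rise with V50. Scaling to mitochondrial mRNAs gave 5 members for SY200 as the mean of the times, 8 for SY200 at 3 h, 9 each for V50 at 6 and 12 h, 7 (1 higher and 6 lower) for both agents at 12 h against 3 h, 8 for CDK9 KO and 10 for CDK7/9 KO. The share of all genes passing under that scaling is not given, so these counts are not read as particular to the members. DMSO alone as control gave 3 for V50 as the mean of the times, 1 at 6 h and 0 at 12 h. Without the block for the line (no pairing), both agents gave 4 members against control and 4 against SY200 as means of the times and 2 at 12 h, while the other 10 comparisons with calls gave 0.

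Leaving out 1 library at a time gave 0 to 1 members for SY200 as the mean of the times and 0 to 1 at 3 h, 1 to 8 for V50 at 3 h, 1 to 4 at 6 h, 0 to 1 at 12 h, 4 to 10 for both agents at 3 h, 6 to 10 for both agents against V50 as the mean of the times and 3 to 9 at 12 h, and for 12 h against 3 h 1 to 6 with V50 and 1 to 3 with both agents. The ranges were 0 to 5 for CDK1 KO, 0 to 6 for CDK7 KO, 0 to 4 for CDK9 KO and 0 to 5 for CDK7/9 KO. The upper ends for the knockouts come from fits left with 1 empty vector library, and the share of all genes passing there is not given. The causes of these shifts were not tested. All 10 members passed with both agents as the mean of the times in every one of the 22 fits that left out a library. Whether depth or the number of libraries limits the single-time comparisons more was not tested.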
